A study of Mus musculus with 6 samples.

Results

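The 39 Hox genes of the mouse were described across the 6 libraries of the series: every protein-coding row whose symbol is Hoxa, Hoxb, Hoxc or Hoxd followed by a number, 39 of 24415 genes counted. They were taken by name and not by their values, though with earlier results of these data known. RNA was sequenced from the inguinal white fat of the groin and flank, which lies under the skin, of 3 WT mice and 3 mice labelled Hsp20 KO, 1 library per mouse. All mice were 12 weeks old, unfasted and on a C57BL/6 background, and the labels name no further allele or agent. Hsp20, a small heat shock protein, is the product of Hspb6, and the sources used here give neither the knockout allele nor the tissues in which it acts.

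Hox genes encode homeodomain transcription factors and lie in 4 clusters, Hoxa to Hoxd. Genes with low paralogue numbers sit at one end of a cluster and act towards the head of the embryo, and genes with high numbers sit at the other end and act towards the tail and the tips of the limbs. Adult connective tissue and fat keep much of the embryonic code, so the set of Hox genes that a fat depot expresses marks where in the body it formed. In subcutaneous fat, Hoxc8 is known as a target of the microRNA miR-196a that opposes brown fat differentiation, and Hoxc9 and Hoxc10 are known as genes of subcutaneous depots.

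In this depot the Hox code stopped towards the tail end of each cluster. The same genes were at or near 0 counts in WT and in the libraries labelled Hsp20 KO. The stop was abrupt in Hoxa and Hoxc, while Hoxd declined over several genes and no Hoxb member lies between Hoxb9 and Hoxb13. Promoters from both sides of that stop are shown because genes of 1 cluster differed so much in their counts. Each is the 300 bases from 250 before to 50 after an annotated start (RefSeq, GRCm38.p6), written 5′ to 3′ on the gene's own strand, with CpG dinucleotides in capitals. Hoxa10, on the minus strand at chr6:52234890-52235189, belongs to a gene with 1431 counts over the 6 libraries and is the start nearest to its longest coding transcript. Hoxa11, on the minus strand at chr6:52245761-52246060, is the next gene and had 2 counts. Hoxd9, on the plus strand at chr2:74697513-74697812, had 732 counts, and Hoxd13, on the plus strand at chr2:74667975-74668274, had 0.
Hoxa10: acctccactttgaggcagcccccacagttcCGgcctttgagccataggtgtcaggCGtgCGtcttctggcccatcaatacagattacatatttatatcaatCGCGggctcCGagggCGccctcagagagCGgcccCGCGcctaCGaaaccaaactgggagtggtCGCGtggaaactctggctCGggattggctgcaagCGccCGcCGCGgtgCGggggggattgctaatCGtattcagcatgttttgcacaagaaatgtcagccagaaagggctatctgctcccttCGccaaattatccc
Hoxa11: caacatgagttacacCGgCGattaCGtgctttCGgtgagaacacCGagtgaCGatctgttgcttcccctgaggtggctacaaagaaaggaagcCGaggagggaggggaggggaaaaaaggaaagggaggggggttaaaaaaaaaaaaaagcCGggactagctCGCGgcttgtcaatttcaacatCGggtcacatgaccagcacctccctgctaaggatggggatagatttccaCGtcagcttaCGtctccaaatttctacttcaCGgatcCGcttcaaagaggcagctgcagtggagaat
Hoxd9: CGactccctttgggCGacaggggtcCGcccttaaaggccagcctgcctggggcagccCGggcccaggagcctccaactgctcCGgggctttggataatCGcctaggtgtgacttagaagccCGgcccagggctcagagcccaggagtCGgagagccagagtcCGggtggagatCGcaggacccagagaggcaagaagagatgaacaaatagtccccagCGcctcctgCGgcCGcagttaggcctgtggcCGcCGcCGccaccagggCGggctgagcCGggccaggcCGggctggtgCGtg
Hoxd13: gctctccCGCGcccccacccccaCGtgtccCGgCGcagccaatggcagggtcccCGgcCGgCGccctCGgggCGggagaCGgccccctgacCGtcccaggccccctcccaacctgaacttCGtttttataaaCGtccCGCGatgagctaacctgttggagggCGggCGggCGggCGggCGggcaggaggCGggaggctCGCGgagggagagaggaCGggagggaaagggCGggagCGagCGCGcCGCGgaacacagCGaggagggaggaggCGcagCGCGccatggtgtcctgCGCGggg

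The CpG content of Hox promoters varied widely on both sides of the stop. The table of promoters held 24 starts for 22 of the 39 Hox genes, with a median of 14.5 CpG per 300 bases against 7 over all 32851 promoters of the table. The 6 promoters of members with under 20 counts in all held between 10 and 45 CpG, with a median of 22. The 18 of the other members held between 4 and 29, with a median of 13.5. Among the 6, Hoxb1 with 10 and Hoxd1 with 29 lie at the head end and not past the stop. Past it, Hoxa11, Hoxa13, Hoxd12 and Hoxd13 held 15, 45, 13 and 37. The Hoxa10 start printed above held 21 and its other start 12, and Hoxd9 held 20. Hoxa9, Hoxd4 and 1 start of Hoxd11 held 4 each and Hoxd8 held 6. The motif TGATTNAT, a site that Hox proteins bind together with Pbx partners, was searched on both strands and found in 2 of the 24 Hox promoters, 1 start of Hoxd11 and that of Hoxa2, and in 3.22% of all promoters. A match shows these letters only, and the libraries hold no measure of binding.

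Library totals ran from 14078936 to 32648746 counts, the lowest being the library labelled KO replicate 3. Hox genes took between 205 and 251 CPM of these unadjusted totals. Hspb6 had 325, 289 and 296 counts in WT replicates 1 to 3 and 245, 33 and 53 in the libraries labelled Hsp20 KO replicates 1 to 3, so that the first of these was near the WT level (log2 change of the group -1.08 ± 0.51 SE, edgeR adjusted p = 0.227). Values without that library are given for some genes only. Of the fat cell markers Adipoq and Plin1 were at 1035 to 1806 and 894 to 1531 CPM (counts scaled to a common library size, adjusted by TMM) over the 6 libraries. Of 8 epidermal markers counted, Krt5 and Krt14 had at most 10 counts in any library, while Krt10 had between 41 and 95 and Trp63 between 37 and 235, and the list summed to between 7.68 and 10.8 CPM in WT and between 5.26 and 10.7 in the libraries labelled KO. The 10 skeletal muscle markers summed to between 118 and 885 CPM in WT and between 81.0 and 132 in the libraries labelled KO, with the most in WT replicate 1, and their part in the Hox values was not tested. In bulk tissue, fewer cells of a type and less RNA per cell cannot be told apart.

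Levels were compared between genes as CPM per kilobase of the longest coding transcript. The Hoxc cluster led: Hoxc8 had the highest level in each of the 6 libraries, and Hoxc6 and Hoxc10 held the next ranks in each. Hoxc8 stood at 36.6 ± 3.42 CPM per kb in WT and 31.2 ± 6.44 in the libraries labelled KO (SD, n = 3 each). Hoxc6, a gene of the neck and chest region, stood at 10.3 ± 0.506 and 11.1 ± 2.16, and Hoxc10, which acts in the lower trunk, at 10.9 ± 1.49 and 10.03 ± 0.980. By this length Hoxc6 and Hoxc10 thus did not differ from each other beyond their spread. Per kilobase of all annotated exons Hoxc10 was at 10.5 and Hoxc6 at 7.04 over all libraries, so their order and the gap between them depended on the length used. Hoxd8 at 4.79 over all libraries, Hoxa7 at 4.63 and Hoxb4 at 4.33 CPM per kb followed, and Hoxa10, Hoxd4, Hoxc9 and Hoxb7 completed the 10 highest, which were the same 10 genes by either length.

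**Figure D1:**
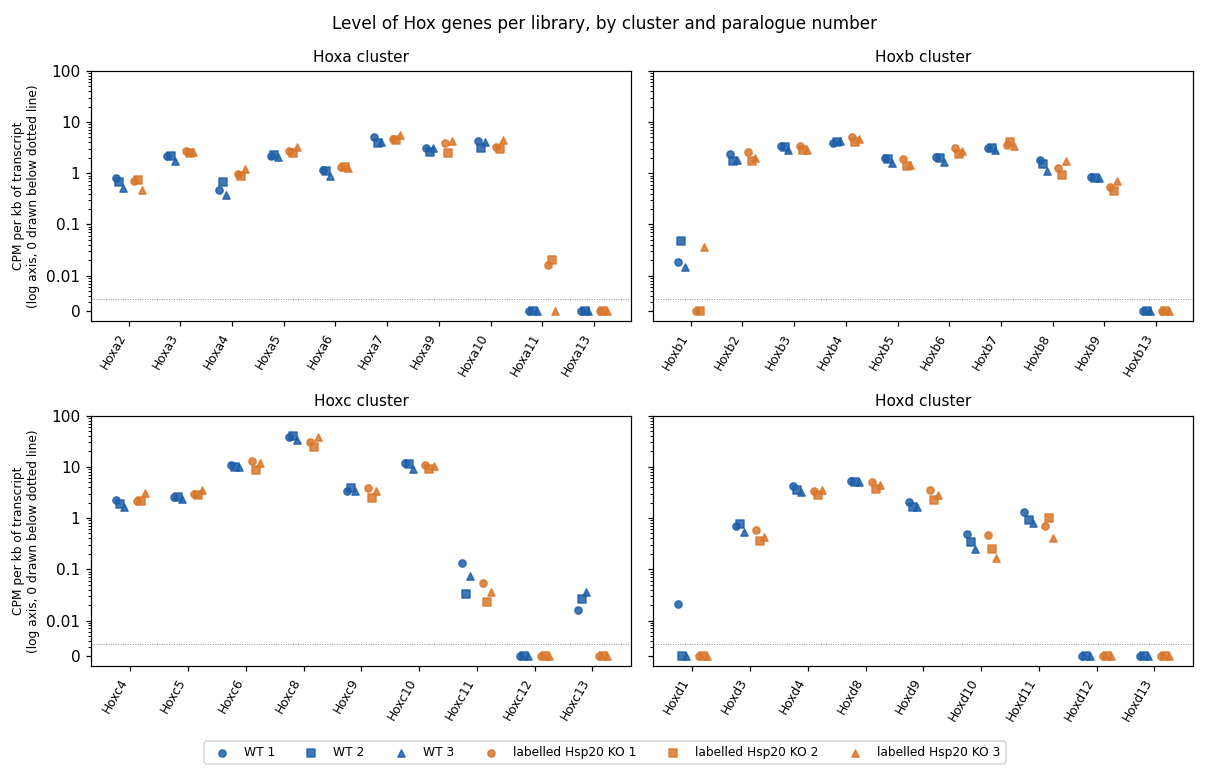
Level of the Hox genes in CPM per kb of longest coding transcript (log axis, with 0 drawn below the dotted line), by cluster and in order of paralogue number. Points are single libraries, blue for WT and orange for those labelled Hsp20 KO. Hoxc8 is the highest gene in all 6 libraries, and the genes past Hoxa10, Hoxb9, Hoxc10 and Hoxd11 lie at or near 0.

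The stop was seen in each cluster. In Hoxa, counts over the 6 libraries went from 1431 for Hoxa10 to 2 for Hoxa11, which patterns the middle limb, and 0 for Hoxa13. In Hoxc they went from 3061 for Hoxc10 to 19 for Hoxc11, 0 for Hoxc12 and 6 for Hoxc13, a gene of hair follicles. In Hoxb, Hoxb9 had 277 and Hoxb13 had 0. In Hoxd the decline began earlier, with 1954 counts for Hoxd8, 732 for Hoxd9, 94 for Hoxd10, 150 for Hoxd11 and 0 for Hoxd12 and for Hoxd13, which shapes digits. Exons of Gm28309 overlap 23.9% of the exons of Hoxd11 and 5.73% of those of Hoxd10, so reads there can go to either gene. At the head end Hoxb1 had 6 counts and Hoxd1 had 1. A count of 0 allows up to 3 counts, or between 0.0907 and 0.223 CPM in a library, for counting error only.

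These 10 members with 19 counts or fewer did not pass the filter on low counts, and 29 were tested. The 5 of the 10 with any count gave no sign that could be read. Hoxc13 had 1, 2 and 3 counts in WT and 0 in each library labelled KO, Hoxc11 had 7, 2 and 5 against 3, 1 and 1, and Hoxb1 had 1, 3 and 1 against 0, 0 and 1. Hoxa11 had 1 count in each of the libraries labelled KO replicates 1 and 2, and the single count of Hoxd1 was in WT replicate 1.

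The Hoxc cluster gave between 51.5% and 54.5% of all Hox counts in the WT libraries and between 48.2% and 51.3% in those labelled KO. Hoxc8 alone gave between 27.8% and 30.3% and between 23.1% and 27.1%. The Hoxa cluster gave between 16.1% and 18.5% in WT and between 19.4% and 21.2% in those labelled KO. These shares did not overlap between the groups for Hoxa, Hoxc or Hoxc8, and no test was made of them. Shares within a library are not independent, since a lower share of a cluster raises the others. The summed levels of both clusters overlapped between the groups. Hoxa had 38.9 to 45.7 CPM in WT and 40.8 to 55.1 in the libraries labelled KO, and Hoxc had 113 to 132 and 96.4 to 134. Summed over all 39 genes, the level was 239 ± 17.7 CPM in WT and 237 ± 32.1 in the libraries labelled KO (SD, n = 3 each), which differ by less than the spread. Over the 29 tested members, Pearson's r of log2 CPM was between 0.988 and 0.991 for pairs of WT libraries, between 0.972 and 0.981 for pairs labelled KO and between 0.936 and 0.973 for pairs across the groups. These points share each gene's length and base composition, and each library's depth.

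No Hox gene passed the test between the genotypes. Of the 29 tested, edgeR's quasi-likelihood test called 0 higher and 0 lower (p adjusted by Benjamini-Hochberg over 15994 genes, threshold 0.05), against 7.65% of all tested genes called, 4.23% higher and 3.42% lower. Before adjustment 6 of 29 had a p under 0.05, 5 of them with a positive and 1 with a negative estimate, where 26.0% of all tested genes had one. DESeq2 called 1, Hoxd9 (log2 change 0.69, DESeq2 adjusted p = 0.0329), where it called 13.5% of all genes. The median log2 change of the 29 was 0.11, against 0.00061 over all tested genes, and 15 had a positive and 14 a negative estimate. Without the library labelled KO replicate 1 edgeR still called 0 of 29, with 13 positive, 16 negative and a median of -0.05. Of the 16167 genes tested in that fit, 941 were called higher and 730 lower.

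The intervals show what size of change the data leave possible. The 95% interval of the change lay within 2-fold in both directions for 23 of the 29 members and within 1.5-fold for 10. Hoxc8 had a fold of 0.849 (95% interval 0.667 to 1.08) and Hoxc10 of 0.918 (0.748 to 1.13). The members whose interval reached past 2-fold were Hoxa4 and Hoxd9 upwards and Hoxb9, Hoxd3, Hoxd10 and Hoxd11 downwards. Of these Hoxa4, Hoxd10, Hoxd11, Hoxb9 and Hoxd3 had mean levels under 2.2 CPM, so that depth limits what can be said of them.

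**Figure D2:**
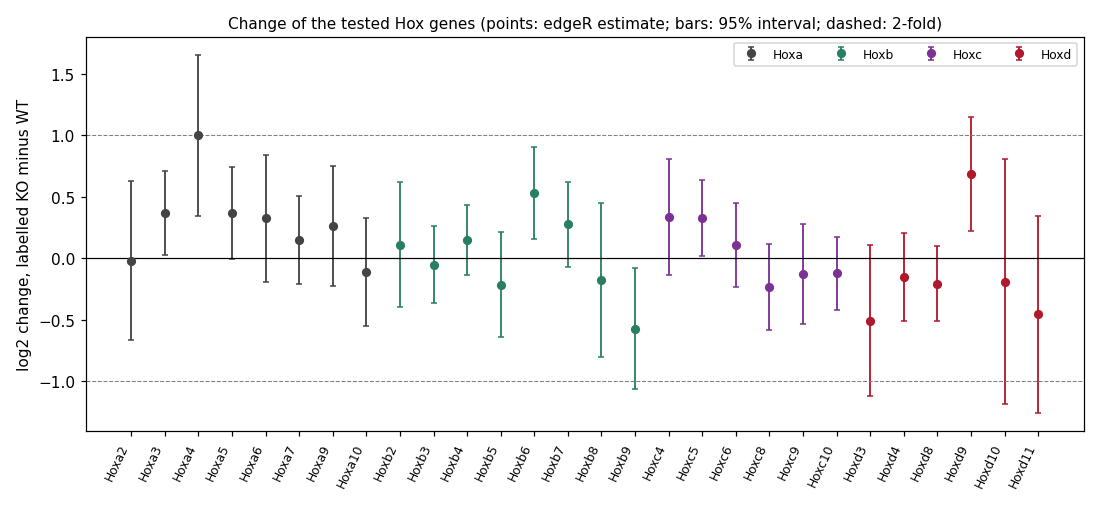
Estimated log2 change of the tested Hox genes, libraries labelled Hsp20 KO minus WT, in order of cluster and paralogue number. Points are edgeR estimates, bars their 95% intervals and dashed lines mark 2-fold. None passed the adjusted test, and the intervals of Hoxa4, Hoxb9, Hoxd3, Hoxd9, Hoxd10 and Hoxd11 cross a dashed line.

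In the Hoxa cluster, 7 of 9 tested members had a positive estimate, with a cluster median of 0.30. Hoxa4, which acts in the neck and upper chest, had 0.737, 1.08 and 0.604 CPM in WT and 1.55, 1.42 and 1.93 CPM in the libraries labelled KO replicates 1 to 3. The groups did not overlap, and the log2 change was 0.998 ± 0.28 (SE; edgeR adjusted p = 0.0722), or 1.03 without the library labelled KO replicate 1 (edgeR adjusted p = 0.107). Of the exons of Hoxa4, 16.0% overlap an antisense gene, Gm29430, and the sources used here do not give the strand setting, so reads of the pair cannot be told apart. Hoxa3, needed for the thymus and parathyroid glands, had 5.59, 5.68 and 4.41 CPM in WT and 7.01, 6.41 and 6.83 in the libraries labelled KO (log2 change 0.37 ± 0.15 SE, edgeR adjusted p = 0.162). Of its exons 29.5% overlap Gm28308 or the antisense Gm29430, Hoxaas2 and Hoxaas3. Hoxa5, a gene of the lung and upper trunk that is also expressed in fat, had 4.07, 4.27 and 3.87 CPM against 5.06, 4.58 and 6.23. Hoxa3, Hoxa4 and Hoxa5 were higher in every library labelled KO than in any WT library, and none passed.

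Hoxa6 had 1.01, 0.946 and 0.786 CPM in WT and 1.16, 1.14 and 1.11 in the libraries labelled KO, also without overlap (log2 change 0.32 ± 0.22 SE, edgeR adjusted p = 0.402). Hoxa7, of whose exons 28.8% overlap the antisense Hoxaas3, had 10.4, 7.83 and 8.19 CPM in WT and 9.47, 8.92 and 10.98 CPM in the libraries labelled KO. Hoxa9, known from blood progenitors, had 10.1, 8.48 and 10.2 CPM against 12.8, 7.96 and 13.95, with the lowest and the highest values both among those labelled KO. Hoxa10, a gene of the lower trunk and uterus, had 11.02, 8.06 and 10.5 CPM against 8.38, 7.69 and 11.4. The groups overlapped for Hoxa7, Hoxa9 and Hoxa10, and their log2 changes ran from -0.11 to 0.26. Hoxa2, which patterns the face and neck, had 1.17 ± 0.264 CPM in WT and 1.12 ± 0.264 in the libraries labelled KO (SD, n = 3 each).

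In the Hoxb cluster, 4 of 8 tested members had a positive and 4 a negative estimate. Hoxb6 had 4.03, 3.82 and 3.26 CPM in WT and 6.00, 4.71 and 5.27 in the libraries labelled KO, with no overlap (log2 change 0.53 ± 0.16 SE, edgeR adjusted p = 0.0876). The log2 change of Hoxb6 was 0.43 without the library labelled KO replicate 1 (edgeR adjusted p = 0.177). Hoxb9, a gene of the rib cage and the last expressed member of this cluster, had 2.17, 2.09 and 2.09 CPM in WT and 1.41, 1.14 and 1.78 in those labelled KO. It was lower in each library labelled KO than in any WT library and had the most negative estimate of the 29 (-0.57 ± 0.21 SE, edgeR adjusted p = 0.141). With the library labelled KO replicate 1 left out, Hoxd3 at -0.78 and Hoxd10 at -0.72 were more negative than Hoxb9 at -0.56. Hoxb7 had 4.07, 4.04 and 3.63 CPM against 4.59, 5.26 and 4.30, also without overlap (0.27 ± 0.15, edgeR adjusted p = 0.284).

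The Hoxb genes of highest level per length were Hoxb4, Hoxb7 and Hoxb3. Hoxb4, known for its action in blood stem cells, had 10.1, 10.5 and 11.2 CPM in WT and 13.01, 10.3 and 11.7 in those labelled KO. Hoxb3 had 10.9, 10.4 and 8.94 CPM against 10.9, 9.11 and 8.98. Both overlapped between the groups. Antisense exons of Hoxb3os overlap 70.5% of the exons of Hoxb3 and 58.5% of those of Hoxb2, which makes both counts uncertain. Hoxb2 had 3.20 ± 0.628 CPM in WT and 3.42 ± 0.722 in those labelled KO, Hoxb5 had 3.49 ± 0.391 and 2.98 ± 0.488, and Hoxb8, a gene of the spinal cord and of some microglia, had 3.83 ± 0.915 and 3.43 ± 1.03 (SD, n = 3 each).

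In the Hoxc cluster, 3 of 6 tested members had a positive estimate, and all 6 estimates lay between -0.24 and 0.34. Hoxc8 had 70.7, 73.3 and 61.2 CPM in WT and 57.5, 46.5 and 70.6 in the libraries labelled KO replicates 1 to 3. The replicate labelled KO 3 lay within the WT range and the other two below it (log2 change -0.24 ± 0.15 SE, edgeR adjusted p = 0.365). Hoxc10 had 23.2, 21.8 and 17.7 CPM against 20.7, 17.1 and 19.7, and Hoxc9 had 8.11, 9.002 and 8.13 against 9.25, 5.95 and 7.87. These 3 genes overlapped between the groups. In the same libraries Ucp1, the uncoupling protein of brown fat, went from between 1.06 and 2.64 CPM in WT to 19.1, 165 and 307 in those labelled KO. Whether the values are linked was not tested.

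Hoxc6 had 17.2, 16.0 and 15.7 CPM in WT and 20.5, 13.8 and 18.5 in the libraries labelled KO, so that the latter lay on both sides of WT. Hoxc4 had the most positive estimate of the cluster, with 4.85, 4.04 and 3.44 CPM against 4.55, 4.62 and 6.53 (0.34 ± 0.20 SE, edgeR adjusted p = 0.341), and its groups overlapped. Hoxc5 had 7.49, 7.50 and 6.77 CPM against 8.67, 8.33 and 10.4, without overlap (0.33 ± 0.13, edgeR adjusted p = 0.171). Exons of an annotated Hoxc5 transcript overlap 8.70% of the exons of Hoxc10, and reads there can go to either gene.

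**Figure D3:**
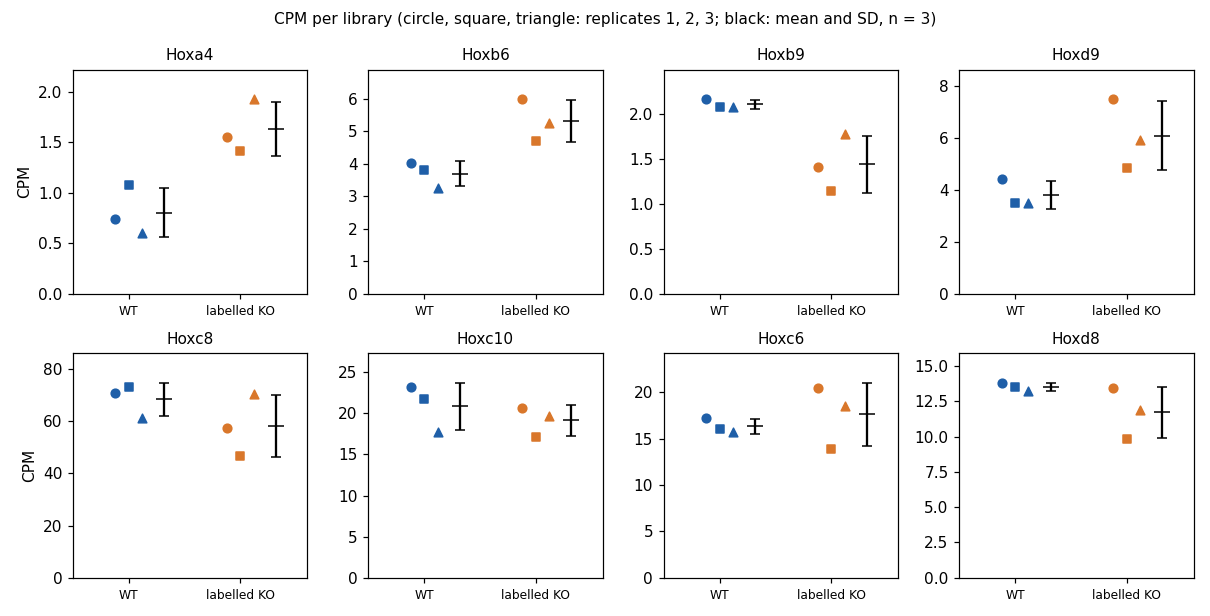
CPM of 8 Hox genes in each library, with WT on the left and the libraries labelled Hsp20 KO on the right of each panel. Circles, squares and triangles are replicates 1, 2 and 3, and black bars are the mean and SD (n = 3). The groups do not overlap for Hoxa4, Hoxb6, Hoxb9 and Hoxd9, and they overlap for Hoxc8, Hoxc10, Hoxc6 and Hoxd8.

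In the Hoxd cluster, 5 of 6 tested members had a negative estimate and Hoxd9 a positive one. Hoxd9, which acts in the lower trunk and upper limb, had 4.42, 3.52 and 3.51 CPM in WT and 7.52, 4.85 and 5.94 in the libraries labelled KO. The groups did not overlap, and the library labelled KO replicate 1, whose Hspb6 was near WT, was the highest (log2 change 0.68 ± 0.20 SE, edgeR adjusted p = 0.0786). Without that library the log2 change was 0.49 (edgeR adjusted p = 0.155). No exon of Hoxd9 overlaps that of another gene. Its neighbour Hoxd8 had 13.8, 13.5 and 13.2 CPM in WT and 13.4, 9.84 and 11.9 in those labelled KO (-0.21 ± 0.13, edgeR adjusted p = 0.361), and its other neighbour Hoxd10, known from lumbar motor neurons, had 0.655 ± 0.222 and 0.528 ± 0.274 (SD, n = 3 each).

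Hoxd4 had 10.6, 8.87 and 8.16 CPM in WT against 8.56, 7.14 and 9.20, with overlap. Hoxd3 had 2.06, 2.28 and 1.57 CPM against 1.77, 1.05 and 1.26 (log2 change -0.51 ± 0.26 SE, edgeR adjusted p = 0.271). Its log2 change was -0.78 without the library labelled KO replicate 1 (edgeR adjusted p = 0.133). As annotated, 88.0% of the exons of Hoxd3 overlap Hoxd4, Gm28230 or the antisense Hoxd3os1, and 45.1% of those of Hoxd4 overlap Gm28230. Their counts depend on how reads in shared exons were assigned, which the sources used here do not say. Hoxd11, a gene of the forearm and lower spine, had 1.44, 1.01 and 0.907 CPM against 0.795, 1.10 and 0.445, with overlap.

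The groups did not overlap for 10 of the 29 members, among them Hoxa3, Hoxa4, Hoxa5, Hoxa6, Hoxb6, Hoxb7, Hoxc5 and Hoxd9 on the higher side and Hoxb9 on the lower. That is 34.5%, near the 32.5% of all tested genes whose groups did not overlap. By direction it was 9 members higher and 1 lower in the libraries labelled KO, where 16.9% of all tested genes were higher and 15.6% lower. A split by position, made after the values were seen and not tested, gave 13 positive and 5 negative estimates among the 18 tested members with paralogue numbers 1 to 7 (median 0.21), and 2 positive and 9 negative among the 11 with numbers 8 to 11 (median -0.18). Hoxa9 and Hoxd9 were the 2 positive ones. Without the library labelled KO replicate 1, Hoxb2 and Hoxc6 of the lower numbers turned negative (-0.0857 and -0.0214). In that fit members with numbers 8 to 11 kept their signs. Leaving out other single libraries turned Hoxb8, Hoxc9 and Hoxd10 positive in some fits (up to 0.0142, 0.0327 and 0.0794). Hoxa2 and Hoxb3 of the lower numbers also changed sign in some of these fits. Genes of a cluster share a neighbourhood, so these members do not count as independent.

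Of 17 non-coding genes inside the clusters 15 were counted and 3 tested, and 0 passed in either direction. Before adjustment 0 had a p under 0.05, where 26.0% of all tested genes had one. Hoxaas2, antisense to Hoxa3, had between 20 and 52 counts in a library (1.70 ± 0.245 CPM in WT and 1.62 ± 0.221 in those labelled KO), Hoxaas3 had between 9 and 14 counts and Hoxb5os between 9 and 21. Hotair, a long non-coding RNA of the Hoxc cluster beside Hoxc11, had 4 counts or fewer in each library. The rows of the microRNA genes Mir10a, Mir10b, Mir196a-1, Mir196a-2, Mir196b and Mir615 had between 0 and 4 counts, and libraries of this kind do not measure mature microRNAs.

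Of 11 genes that flank the clusters 6 were tested, and edgeR called 0. Before adjustment 2 of the 6 had a p under 0.05, where 26.0% of all tested genes had one. Evx2, next to Hoxd13, had 0 counts in all and Evx1, next to Hoxa13, had 1. Mtx2, a mitochondrial protein gene beyond the other end of Hoxd, had 24.7, 25.96 and 27.1 CPM in WT and 30.1, 32.5 and 36.4 in the libraries labelled KO (log2 change 0.35 ± 0.092 SE, edgeR adjusted p = 0.062). It passed without the library labelled KO replicate 1 (0.41, edgeR adjusted p = 0.0379), with upper quartile scaling (edgeR adjusted p = 0.0483) and with DESeq2 (adjusted p = 0.0291). Skap1, a T cell adaptor gene near Hoxb, had 16.2 ± 2.26 and 25.2 ± 5.42 CPM (SD, n = 3 each; edgeR adjusted p = 0.059), and passed with no filter on low counts (edgeR adjusted p = 0.047), with DESeq2 (adjusted p = 0.00884) and with the replicate number as a block (edgeR adjusted p = 0.0393). Lnpk beside Hoxd and Cbx5 beside Hoxc had estimates of -0.09 and -0.17.

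Among Hox partners of the TALE class, homeodomain proteins that bind DNA jointly with Hox proteins, 2 of 9 fell and 0 rose. Of all tested genes 3.42% fell. Before adjustment 3 of the 9 had a p under 0.05, where 26.0% of all tested genes had one. Pknox1 fell from 32.98, 29.8 and 35.2 CPM in WT to 25.1, 24.6 and 26.4 in the libraries labelled KO (log2 change -0.37 ± 0.087 SE, edgeR adjusted p = 0.0465). Neither call held when any 1 of the 6 libraries was left out (edgeR adjusted p from 0.075 to 0.176 for Pknox1). Pbx2 had 47.6 ± 2.61 and 56.8 ± 0.969 CPM and Meis2 14.4 ± 2.50 and 11.9 ± 1.67 (SD, n = 3 each), and neither passed. The list median was -0.07.

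Of 29 tested Polycomb and Trithorax genes, whose proteins keep Hox clusters silent or active, 3 rose and 0 fell, where 4.23% of all tested genes rose. Before adjustment 7 of the 29 had a p under 0.05, where 26.0% of all tested genes had one. The list median was -0.01. Cbx8, a chromodomain subunit of Polycomb complex PRC1, rose from 6.48, 5.87 and 6.38 CPM to 9.61, 11.1 and 10.5 (log2 change 0.74 ± 0.12 SE, edgeR adjusted p = 0.0167). Pcgf2, another PRC1 subunit, rose from 8.04 ± 0.956 to 12.2 ± 1.65 CPM, and Kdm6b, an enzyme that removes the repressive methyl mark of Polycomb from histone H3, rose from 74.03 ± 4.58 to 102 ± 13.5 CPM (SD, n = 3 each; edgeR adjusted p = 0.0484 and 0.0433). The call of Cbx8 was lost when WT replicate 2 or WT replicate 3 was left out (edgeR adjusted p = 0.0817 and 0.0815), Pcgf2 was not called without any 1 library, and Kdm6b was called only when the library labelled KO replicate 1 was the one left out. Rbbp4, a histone-binding subunit at 158 ± 3.55 and 156 ± 5.27 CPM, had an estimate of -0.02. Cdx1, Cdx2 and Cdx4, activators of the tail-end Hox genes in the embryo, did not pass the filter on counts.

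Retinoic acid, made from vitamin A, switches on Hox genes of the head end in the embryo. Of 14 tested genes of its synthesis, breakdown and receptors 2 fell and 0 rose, where 3.42% of all tested genes fell. Before adjustment 7 of the 14 had a p under 0.05, where 26.0% of all tested genes had one. The list median was -0.19. Aldh1a1, which makes retinoic acid from retinaldehyde, fell from 90.5, 90.3 and 89.3 CPM to 38.1, 47.1 and 57.1 (log2 change -0.93 ± 0.14 SE, edgeR adjusted p = 0.0126). Stra6, a membrane receptor that takes up vitamin A, fell from 2.56, 3.62 and 2.60 to 0.759, 1.14 and 1.71 CPM (-1.35 ± 0.31, edgeR adjusted p = 0.0417). Without WT replicate 2 or 3 Aldh1a1 did not pass (edgeR adjusted p = 0.064 and 0.061), and Stra6 passed only when the library labelled KO replicate 3 was the one left out. Rxra, a partner receptor of the retinoic acid receptors, had 218 ± 7.98 and 180 ± 17.9 CPM and Dhrs3 138 ± 14.7 and 109 ± 17.8, and neither passed.

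Of 20 tested genes that mark a fat depot or a body position, 1 fell and 0 rose, where 3.42% of all tested genes fell. Before adjustment 4 of the 20 had a p under 0.05, where 26.0% of all tested genes had one. The list median was -0.13. Meox1, a homeobox gene of the somites, fell from 13.6, 16.7 and 13.8 CPM to 9.97, 8.97 and 10.4 (log2 change -0.59 ± 0.12 SE, edgeR adjusted p = 0.034), and this call held only when the library labelled KO replicate 1 was the one left out. Thbd, thrombomodulin, had 162 ± 16.3 and 101 ± 28.0 CPM (edgeR adjusted p = 0.0707, or 0.0143 without the library labelled KO replicate 1, and 0.0081 with DESeq2). Irx2, a homeobox gene picked after its values were seen, had the most negative estimate of the list, with 3.34, 4.50 and 6.86 CPM in WT and 3.68, 2.06 and 2.97 in those labelled KO (-0.75 ± 0.31, edgeR adjusted p = 0.181), and its groups overlapped. Sfrp2 and Gpc4 had estimates of 0.22 and -0.16 and did not pass. Tbx15, Shox2, Wt1 and Tcf21 were picked after their values were seen. The other genes of the list were not sorted by depot, so these picks cannot stand for it. Tbx15 and Shox2, known as genes of subcutaneous fat, had 17.96 ± 1.74 and 20.3 ± 2.35 CPM in WT and 16.5 ± 4.70 and 19.8 ± 3.89 in those labelled KO, while Wt1 and Tcf21, known from visceral fat, had 2 counts or fewer in each of the 6 libraries. Of the markers of the mesothelium of visceral fat, Lrrn4 had between 26 and 63 counts in a library, Krt19 between 7 and 75, and Upk3b at most 19, in WT replicate 3.

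Of 10 other homeobox genes tested, 0 were called and 1, Zfhx3, had an unadjusted p under 0.05, where 26.0% of all tested genes had one. Zfhx3 had 60.9 ± 11.4 CPM in WT and 41.8 ± 4.38 in those labelled KO (SD, n = 3 each, edgeR adjusted p = 0.0638, and 0.0128 with DESeq2). Zfhx4, Msx1 and Six2 had estimates of -0.34, 0.42 and -0.39. Among markers of cells that could carry a Hox code of their own, the 13 progenitor and fibroblast markers had 0 calls and a median of -0.16. Before adjustment 2 of the 13 had a p under 0.05, where 26.0% of all tested genes had one. Their summed levels ran from 9296 to 10620 CPM in WT and from 7905 to 13230 in those labelled KO. The 6 endothelial markers had 0 calls and 1 p under 0.05 before adjustment. Of the 6 smooth muscle markers 1 fell, Cnn1 (log2 change -0.855 ± 0.20 SE, edgeR adjusted p = 0.044), where 3.42% of all tested genes fell. Des and Rgs5 of that list had estimates of 0.05 and 0.03, and 3 of the 6 had a p under 0.05 before adjustment. The 8 lymphocyte and 7 macrophage markers had 0 calls, with 0 and 3 at a p under 0.05 before adjustment. The part of these cell types in the Hox values was not tested.

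**Figure D4:**
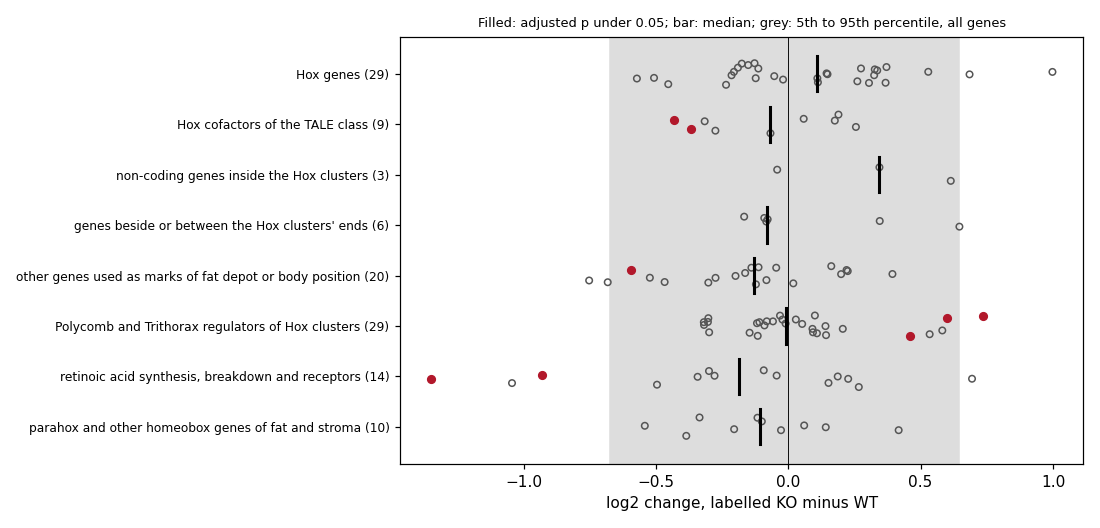
Log2 change of each tested gene, libraries labelled Hsp20 KO minus WT, for the Hox genes and the other lists, with the number tested in brackets. Filled red points passed at an adjusted p under 0.05, bars are list medians, vertical scatter has no meaning, and the grey band spans the 5th to the 95th percentile of all tested genes (-0.67 to 0.64). The Hox row holds no filled point.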

How the data were processed

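The authors deposited raw read counts for each gene, with 1 column per mouse. Per the submitters' processing notes the builds were mm10 and GRCm38 and the tools TopHat, DESeq, bcl2fastq and CASAVA 1.8. The sources used here do not give the counter, the annotation or the strand setting. Columns were matched to mice by the sample names in the labels, and 24334 of 24415 gene IDs to symbols through RefSeq (GRCm38.p6). The 81 unmatched IDs, between 1.30% and 5.74% of a library, stayed in the totals.

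Genotypes were compared with edgeR 4.0.16 in R 4.3.3 (filterByExpr with a minimum count of 10, TMM, quasi-likelihood F test, genotype as the only term, Benjamini-Hochberg adjustment, threshold 0.05) over all 15994 genes that passed the filter. SEs are those implied by F, and intervals use 7.69 degrees of freedom. The biological coefficient of variation was 14.8%. Transcript lengths and exon overlaps come from GENCODE M21. The pipeline was tested on simulated data. Alternatives were DESeq2 1.42.0 and its size factors, upper quartile scaling, limma-voom 3.58.1, 2 other count filters, a replicate block and leaving out each library, with exon length added after seeing the data. Named were the members with a count, and up to 4 genes per other list, called ones first. For 1 member and 1 cofactor, which stay in the fits and in all counts, values are not reported here. Members and lists were chosen with earlier results of these data known. Counts of replicates of a group differed by more than sampling noise (lowest ratio of chi-square to its degrees of freedom 17.0).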

Additional observations from a re-analysis of the deposited data

How the results depend on the processing

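Over 13 alternatives, 0 Hox genes were called lower in any, and the 0 called higher became 1 with the DESeq2 Wald test alone. Of 376 estimates for the 29 tested members, 364 kept direction and side of the threshold, 1 passed, Hoxd9 with DESeq2, and 11 changed sign, in 7 members. With limma-voom Hoxa2 was at 0.0130. Leaving out 1 library gave ranges of -0.18 to 0.14 for Hoxa2, -0.0857 to 0.28 for Hoxb2, -0.15 to 0.0032 for Hoxb3, -0.39 to 0.0142 for Hoxb8, -0.0214 to 0.26 for Hoxc6, -0.29 to 0.0327 for Hoxc9 and -0.72 to 0.0794 for Hoxd10. Outside the members it gave -0.17 to 0.0588 for Hoxaas2, -0.36 to 0.0738 for Tbx15 and -0.20 to 0.0378 for Shox2. The causes were not tested.

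Over all genes, 676 were called higher and 547 lower as designed, 1135 and 1024 with DESeq2, and between 75 and 941 higher and between 53 and 730 lower with 1 library left out. With the replicate number as a block 226 were higher and 169 lower, and 0 Hox genes were called. The labels say of no number that it pairs mice, and same-numbered libraries did not deviate together (correlations of -0.04, 0.09 and -0.10 for replicates 1 to 3). The block ended the calls of Pknox1, Meox1, Cbx8, Pcgf2, Kdm6b and Stra6, and limma-voom that of Pknox1, while Skap1 passed with the block (edgeR adjusted p = 0.0393). Low counts limit Hoxd10, Hoxd11, Hoxa4 and Hoxa6, with means near 1 CPM.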
